A study of Mus musculus with 12 samples.

Results

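Thymic tumors of the Sdl mouse were measured as 4 pools, and the 300 transcript clusters whose levels differed most between those pools are described here. A transcript cluster is the array's unit for a gene. The clusters were chosen from the 9591 that carry a single gene symbol and have a mean log2 intensity of 7 or more over the tumor pools, out of 17829 clusters in all. They are the 300 with the highest standard deviation (SD) over the 4 tumor pools, 3.13% of those 9591, and they carry 298 distinct symbols because Actc1 and Il2rb each hold 2 clusters. The spread between tumor pools chose these clusters, so it is given as a description and was not tested.

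The tumor pools came from moribund female mice heterozygous for the D573H substitution in Mcm4, which encodes part of the ring that opens DNA ahead of the replication fork. Pre-leukemic pools came from whole thymus of heterozygous females at 21 days of age. Wild-type pools came from whole thymus of females with 2 normal copies of Mcm4, also at 21 days. Each group had 4 pools, each pool combined 3 organs, and each pool was read on 1 array. Disease, age and genotype all differ between tumor and wild-type pools, and these cannot be told apart. A pool averages 3 tumors, so differences between the mice within it are not seen. The labels call the pools of a group biological replicates, and a pool number names a pool only within its group.

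The thymus is the organ in which T cells are made. Precursors without CD4 or CD8 first rearrange a T-cell receptor gene under Notch signalling, then carry CD4 and CD8 together, and then mature to carry either CD4 or CD8 and leave. In mice with thymic lymphoma, one clone or a few clones of such cells fill the organ, so tumors can differ in the stage of their T cells. They can also differ in the macrophages, connective tissue and remains of epithelium or neighbouring tissue that a dissected mass contains. In bulk RNA of this kind, fewer cells of a type and less RNA per cell cannot be told apart.

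T-lineage transcripts were high in every tumor pool. Cd3e, which encodes a chain of the CD3 signalling complex, measured 12.45, 12.34, 12.60 and 12.53 log2 intensity in tumor pools 1 to 4, against 12.41, 12.45, 12.24 and 12.45 in wild-type pools 1 to 4. The surface protein gene Thy1 measured 12.44, 12.09, 12.005 and 12.18 in the tumor pools and 12.28, 12.28, 12.19 and 12.27 in the wild-type pools. None of 8 T-cell or leukocyte markers checked (Cd3d, Cd3e, Cd3g, Cd2, Cd5, Lat, Thy1 and Ptprc) was among the 300 clusters. This does not show that all were steady. Cd5 measured 9.14, 9.67, 9.20 and 8.76 in the tumor pools and 10.83, 10.85, 10.64 and 10.72 in the wild-type pools. Its tumor SD of 0.38 was above 0.34, the limit of the highest 10% of tumor SDs. Cd2, Cd3g, Lat and Ptprc were also below every wild-type pool in all tumor pools, while Cd3d, Cd3e and Thy1 overlapped wild type. The arrays of tumor pools 1 and 4 had a wider range of intensities, with interquartile ranges of 3.17 and 3.10, than those of pools 2 and 3, with 2.75 and 2.76. Wild-type arrays lay between 2.84 and 3.08. Genes near the lower end of the scale were accordingly lower in pools 1 and 4: the mean over 758 olfactory receptor genes, which thymus is not known to use, was 4.67, 5.06, 4.97 and 4.76 log2 intensity in tumor pools 1 to 4.

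Tumor pools differed from one another more than the pools of wild-type thymus did. Over the 9591 clusters the median SD was 0.15 in tumor, 0.14 in pre-leukemic and 0.08 in wild-type pools, in log2 units. The 300 clusters had tumor SDs of 0.51 to 2.28 with a median of 0.65. Their highest and lowest tumor pools lay at least 0.95 and at the median 1.43 log2 units apart, and in 57 of them the range was 4-fold or more. The last 3 inside the limit were C1qa, Dock9 and Gadd45g, each at an SD of 0.51, and the first 3 outside were Syt13, Pi16 and Olfr1395, also at 0.51.

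The spread over wild-type and pre-leukemic pools was not used to choose the clusters. Of the 300, 104 (34.7%) were among the highest 10% of wild-type SDs, against 10% of the 9591, and 117 (39.0%) were among the highest 10% of pre-leukemic SDs, also against 10%. Of these, 73 were in both classes, and 152 of the 300 were in neither. The 300 had a median SD of 0.12 in wild-type pools and 0.25 in pre-leukemic pools. Wild-type SD was below the median of the 9591 for 59 of them and was as large as the tumor SD or larger for 7. Across the 9591 clusters, which are not independent, tumor SD and wild-type SD had a Spearman correlation of 0.38.

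**Figure D1:**
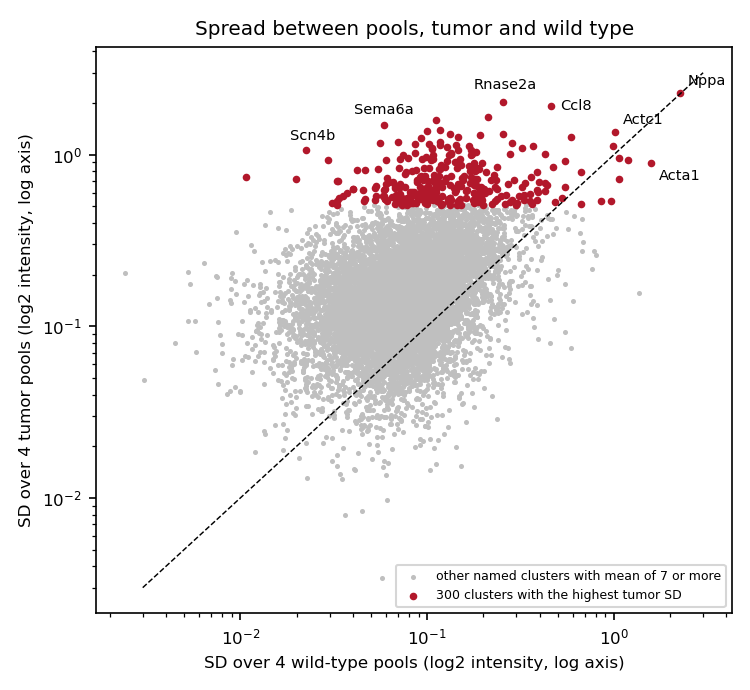
Each point is a cluster with a single symbol and a mean of 7 or more over the tumor pools, placed by its SD over the 4 wild-type pools (x, log2 intensity on a log axis) and its SD over the 4 tumor pools (y, same scale). The 300 clusters chosen are red and the dashed line marks equal spread. Nppa lies on it, while Sema6a and Scn4b combine a high tumor SD with wild-type SDs of 0.06 and 0.02.

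The clusters did not vary along a single axis. For each cluster the 4 tumor values were sorted and the largest gap between neighbours was taken as the split. It left 1 pool alone in 211 of 300 clusters (70.3%, against 63.8% of the 9591) and put 2 pools against 2 in 89. Pool 1 stood alone in 94 clusters (31.3%, against 16.8%), pool 2 in 42 (14.0%, against 18.4%), pool 3 in 29 (9.67%, against 16.04%) and pool 4 in 46 (15.3%, against 12.6%). The number for pool 2 was 64 of 300 when the floor on the tumor mean was 8. Pool 1 stood alone above in 55 clusters (18.3%, against 11.3%) and pool 2 in 1 (0.33%, against 7.24%). Pool 3 did so in 27 (9.0%, against 5.14%) and pool 4 in 42 (14.0%, against 7.13%). Pool 1 stood alone below in 39 clusters (13.0%, against 5.46%) and pool 2 in 41 (13.7%, against 11.2%). Pool 3 did so in 2 (0.67%, against 10.9%) and pool 4 in 4 (1.33%, against 5.45%). Pools 1 and 4 were above the others in 32 clusters (10.7%, against 15.5%), pools 3 and 4 in 28 (9.33%, against 2.70%) and pools 2 and 3 in 16 (5.33%, against 10.4%). Pools 1 and 3 were above in 8 (2.67%, against 2.09%), pools 1 and 2 in 3 (1.0%, against 3.76%) and pools 2 and 4 in 2 (0.67%, against 1.70%). The splits of pools 1 and 4 from pools 2 and 3 run the same way as the interquartile ranges of the arrays, and the part of those ranges in them was not tested. After arrays were scaled to an equal interquartile range and ranked again, 29 clusters had pools 1 and 4 above and 26 had pools 2 and 3 above. Principal components of the 300 clusters over the tumor pools held 46.4%, 36.2% and 17.4% of the variance. The first set pool 1 at 13.37 against -4.52, -7.23 and -1.63 for pools 2 to 4. The second set pool 2 at 8.80 and pool 4 at -10.83.

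**Figure D2:**
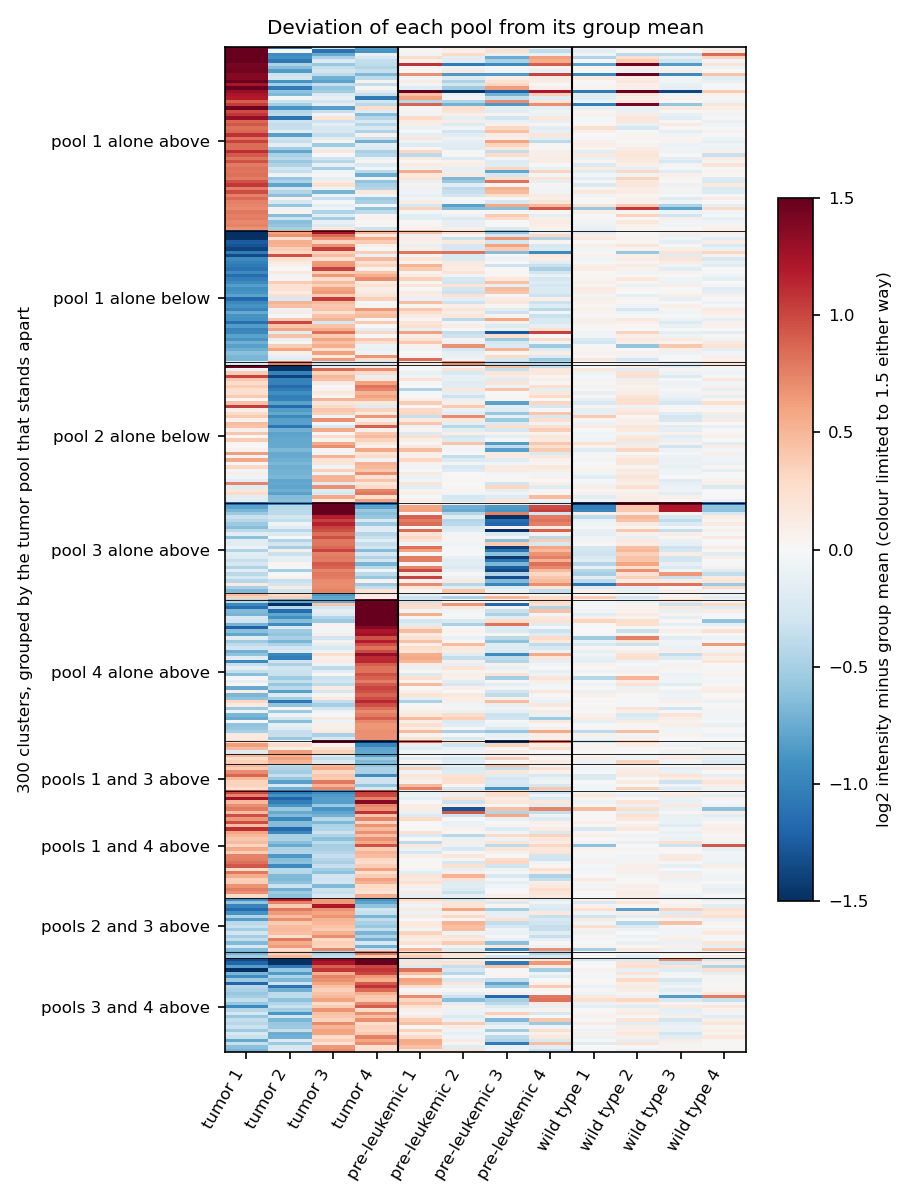
Rows are the 300 clusters, grouped by the tumor pool or pair of pools that stands apart (patterns with 8 or more clusters are named), and columns are the 4 tumor, 4 pre-leukemic and 4 wild-type pools. Colour is the log2 intensity minus the mean of the 4 pools of the same group, limited to 1.5 either way. The largest blocks are pool 1 alone above (55 clusters), pool 4 alone above (42), pool 2 alone below (41) and pool 1 alone below (39). Clusters with pool 3 alone above also vary between pre-leukemic and wild-type pools.

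Macrophage genes were the marker group with the most members. Of the 27 clusters of the macrophage and monocyte list that met the floor, 11 (40.7%) were among the 300: Ccl8, Slc40a1, Mrc1, Arg1, Ccl9, C1qa, C1qb, C1qc, Gpnmb, Cd5l and Adgre1. The mean log2 intensity over all 32 measured genes of the list was 8.26, 8.02, 8.66 and 8.89 in tumor pools 1 to 4, against 7.77, 7.80, 7.79 and 7.76 in wild-type pools. Every tumor pool was above every wild-type pool, and pools 3 and 4 were highest. Of the 32 genes, 29 were highest in tumor pool 3 or 4 and 23 were lowest in pool 2. With arrays scaled to equal interquartile range, the means were 8.28, 8.05, 8.68 and 8.86 in the tumor pools, the same order.

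Ccl8, a chemokine that attracts monocytes, measured 7.40, 6.82, 10.10 and 10.71 log2 intensity in tumor pools 1 to 4, against 5.60, 5.66, 6.55 and 5.62 in wild-type pools. Every tumor pool exceeded every wild-type pool, and pools 3 and 4 exceeded pools 1 and 2 by 2.70 at the gap. Mrc1, the mannose receptor of tissue macrophages, measured 8.01, 7.32, 8.86 and 9.52 in the tumor pools and 7.95, 8.17, 7.99 and 8.06 in the wild-type pools. Here pool 2 was below all wild-type pools while pools 3 and 4 were above them. Cd5l, a secreted protein of macrophages, was above wild type in all tumor pools, with pool 2 the lowest of them. Slc40a1, the iron exporter ferroportin, measured 7.38, 7.02, 7.05 and 9.78 in the tumor pools and 7.81, 7.77, 8.06 and 7.80 in the wild-type pools. Pool 4 alone was above wild type and the other tumor pools were below it.

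Arg1, the arginase of alternatively activated macrophages, measured 9.003, 8.92, 9.25 and 10.35 in the tumor pools and 6.10, 6.01, 6.28 and 6.98 in the wild-type pools. It was high in every tumor pool and highest in pool 4. C1qa, a chain of the complement protein C1q, measured 9.19, 8.97, 10.02 and 9.86 in the tumor pools and 9.16, 9.28, 9.10 and 9.23 in the wild-type pools. Its neighbours C1qb and C1qc encode the partner chains and had pool 2 alone below. Adgre1, the F4/80 antigen, had the same split as C1qb and C1qc. The Fc receptor genes Fcgr4 and Fcer1g and the beta-glucan receptor gene Clec7a also had pool 2 alone below. Fcgr4 measured 7.60, 6.21, 8.51 and 8.39 in the tumor pools and 5.93, 5.58, 5.80 and 5.71 in the wild-type pools, so even pool 2 was above wild type.

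Several other members were higher in tumor pools 3 and 4 than in tumor pools 1 and 2, among them Cd74 and H2-Ab1 of antigen presentation. The macrophage list moved with this split, and its part in it was not tested. Cd74, the invariant chain of class II antigen presentation, measured 9.29, 9.21, 10.40 and 9.996 in the tumor pools and 11.88, 11.96, 11.75 and 11.95 in the wild-type pools. H2-Ab1, a class II beta chain, measured 7.75, 7.52, 8.60 and 9.08 in the tumor pools and 9.95, 10.02, 9.77 and 9.99 in the wild-type pools. Both were below wild type in every tumor pool, and pools 3 and 4 were nearer to it. Of the 14 measured genes of the dendritic cell and class II list, 7 were highest in pool 3, 3 in pool 4 and 3 in pool 2. Pool 2 held the lowest value for 7 of them, pool 4 for 4 and pool 1 for 3. The list mean was 7.85, 7.93, 8.30 and 8.20 in the tumor pools, against 9.08, 9.12, 9.01 and 8.9996 in the wild-type pools. That mean was higher in tumor pools 3 and 4 than in pools 1 and 2, though not every gene followed. With arrays scaled to equal interquartile range, the tumor means were 7.90, 7.96, 8.30 and 8.21. Saa3, an acute-phase protein, measured 9.06, 8.82, 10.78 and 10.88 in the tumor pools and 7.14, 7.38, 7.34 and 6.68 in the wild-type pools. All tumor pools were above wild type, pools 3 and 4 the most. Retnla, a secreted protein of alternatively activated macrophages, measured 5.80, 5.37, 8.21 and 8.64 in the tumor pools and 9.94, 10.17, 9.69 and 10.09 in the wild-type pools. Its tumor levels were all below wild type although its split was the same as that of Saa3. Others with pools 3 and 4 above were the connexin gene Gjb2 (6.04, 7.05, 8.69 and 8.69 in the tumor pools, 6.94 to 7.36 in the wild-type pools), the interferon-inducible Ifi202b, the phosphodiesterase gene Pde9a, the apolipoprotein gene Apod, the adhesion gene Mpzl2, the platelet chemokine gene Ppbp, the p53 target Perp and the transcription factor gene Jun.

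Promoter sequences of 3 of these genes are shown because they hold a motif bound by interferon-responsive factors. They are the member genes with pools 3 and 4 above in which the motif GAAANNGAAA was found, out of 20 such genes with a promoter in the RefSeq table (GRCm38.p6). The table gives 250 bases before and 50 after the start of each gene, and matches on both strands, overlapping ones too, are in capitals. Ifitm2 and Ifitm3, neighbours on chromosome 7, encode membrane proteins that restrict virus entry. The Ifitm2 window is chr7:140955912-140956211, that of Ifitm3 is chr7:141010695-141010994 and that of Saa3 is chr7:46715627-46715926, all on the minus strand and written 5′ to 3′.
Ifitm2: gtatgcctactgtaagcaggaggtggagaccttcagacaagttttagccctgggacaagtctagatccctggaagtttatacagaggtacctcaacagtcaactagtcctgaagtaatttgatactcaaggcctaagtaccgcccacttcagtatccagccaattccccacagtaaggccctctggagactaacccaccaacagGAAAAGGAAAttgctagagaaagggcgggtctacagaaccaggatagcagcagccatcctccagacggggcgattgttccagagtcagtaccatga
Ifitm3: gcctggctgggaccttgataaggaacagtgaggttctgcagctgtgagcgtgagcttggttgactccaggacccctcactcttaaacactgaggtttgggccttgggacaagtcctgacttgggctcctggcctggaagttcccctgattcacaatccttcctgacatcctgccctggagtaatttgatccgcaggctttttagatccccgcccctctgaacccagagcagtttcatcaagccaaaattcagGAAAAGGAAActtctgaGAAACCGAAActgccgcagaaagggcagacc
Saa3: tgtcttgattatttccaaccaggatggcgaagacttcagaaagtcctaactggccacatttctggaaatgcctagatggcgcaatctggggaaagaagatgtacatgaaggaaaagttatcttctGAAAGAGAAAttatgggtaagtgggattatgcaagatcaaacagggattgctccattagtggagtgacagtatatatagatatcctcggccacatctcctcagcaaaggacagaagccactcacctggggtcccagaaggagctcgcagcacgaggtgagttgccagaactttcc
Ifitm3 has 2 matches, and Ifitm2 and Saa3 have 1 each. The motif occurred in 3.44% of all 32851 promoters, in 3.99% of all 27025 genes with a promoter and in 7.01% of the 214 member genes with a promoter. A match describes these letters and is not a measured binding site.

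Ifitm2 measured 9.84, 9.45, 10.46 and 10.92 in tumor pools 1 to 4 and 10.16, 10.32, 10.06 and 10.39 in wild-type pools. Ifitm3 measured 9.39, 8.87, 10.21 and 10.02 in the tumor pools and 11.46, 11.54, 11.10 and 11.43 in the wild-type pools. Ifitm2 was above every wild-type pool in tumor pools 3 and 4, while Ifitm3 was below them in all tumor pools.

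Interferon-inducible genes did not share a single split. Mx1, an antiviral GTPase, measured 8.23, 6.15, 6.29 and 8.25 in tumor pools 1 to 4 and 6.56, 6.61, 6.69 and 6.66 in wild-type pools. Its neighbour Mx2 measured 8.50, 6.05, 6.42 and 7.97 in the tumor pools and 6.54, 6.48, 6.39 and 6.54 in the wild-type pools. For both genes pools 1 and 4 were above all wild-type pools. Cxcl9, a chemokine induced by interferon gamma, measured 6.79, 6.96, 8.94 and 6.71 in the tumor pools and 8.72, 8.76, 8.71 and 8.39 in the wild-type pools, so that pool 3 alone reached the wild-type level. These 3 were the only members among 31 clusters of the interferon list at the floor (9.68%). The mean of the list was 8.05, 7.94, 8.23 and 8.06 in tumor pools and 8.86, 8.95, 8.80 and 8.82 in wild-type pools.

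Genes of fibroblasts and their matrix stood out in pool 3 among tumors, and they varied between pre-leukemic pools as well. Of 30 measured genes of the fibroblast and matrix list, 24 were highest in tumor pool 3, and the list mean was 8.33, 8.43, 8.90 and 8.44 in the tumor pools, against 9.03, 9.25, 9.05 and 9.11 in the wild-type pools. In pre-leukemic pools 1 to 4 the list mean was 9.52, 9.03, 8.44 and 9.29. The SD of these means was 0.47 over pre-leukemic pools and 0.25 over tumor pools. Of 29 clusters at the floor 6 (20.7%) were members: Pdgfrb, Igfbp5, Dpt, Lum, Igfbp4 and Postn. Igfbp5, a binding protein of insulin-like growth factors, measured 6.48, 6.96, 8.18 and 6.48 in the tumor pools and 10.24, 10.45, 10.10 and 10.43 in the wild-type pools. Dpt, the matrix protein dermatopontin, measured 7.11, 7.17, 8.62 and 6.88 in the tumor pools and 9.21, 10.07, 9.35 and 9.71 in the wild-type pools. Pool 3 was the highest tumor pool for both and still lay below wild type. Their SDs over pre-leukemic pools, 0.975 for Igfbp5 and 1.09 for Dpt, exceeded their tumor SDs of 0.80 and 0.80. Of the 27 clusters with pool 3 alone above, 21 were among the highest 10% of wild-type SDs. Efemp1, an elastic-fibre protein gene, Cd34, carried by progenitors, vessels and fibroblasts, Lyve1, of lymphatic vessels and some macrophages, and Emcn, of blood vessels, had the same split. The proteoglycan gene Lum had pools 1 and 3 above. A separate list of collagen genes did not set pool 3 apart from pool 2. Of its 39 measured genes 19 were highest in pool 3 and 18 in pool 2, and none of its 27 clusters at the floor was a member. Its means were 7.12, 7.53, 7.58 and 7.16 in tumor pools 1 to 4.

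Pdgfrb, the beta receptor for platelet-derived growth factor, went another way. It measured 9.39, 9.26, 9.98 and 11.11 in the tumor pools and 7.45, 7.73, 7.4995 and 7.51 in the wild-type pools. It was above wild type in every tumor pool, which held for none of the other 5 matrix members, and highest in pool 4. Igfbp4 was also highest in pool 4, with 8.60, 8.72, 9.44 and 9.88 in the tumor pools and 9.46 to 9.63 in the wild-type pools. Postn, the matrix protein periostin, had pool 2 alone below.

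Heart and skeletal muscle genes varied between wild-type pools as well as between tumor pools. Nppa, the atrial natriuretic peptide made by the heart, had the highest tumor SD and also the highest wild-type SD of the 300. It measured 6.27, 6.45, 10.89 and 6.25 in the tumor pools and 6.15, 10.22, 10.89 and 7.46 in the wild-type pools. Tumor pool 3 and wild-type pools 2 and 3 were high, so the groups overlap. The 2 clusters of Actc1, cardiac actin, had pool 3 alone above in tumors and their highest wild-type values in pools 2 and 3, at 9.95 and 10.75 for one and 10.22 and 11.01 for the other. Mb, the oxygen-storing myoglobin of muscle, measured 7.84, 7.45, 8.42 and 7.18 in the tumor pools and 7.29, 9.18, 9.17 and 7.80 in the wild-type pools.

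Most genes of the skeletal muscle list followed pool 1. Of 8 clusters at the floor 6 were members, and 11 of 12 measured genes were highest in tumor pool 1. Mb is 1 of those 6 members and had pool 3 alone above. The list mean was 7.92, 6.78, 7.04 and 6.66 in tumor pools, 8.62, 7.09, 7.15 and 8.65 in pre-leukemic pools and 7.05, 8.93, 7.35 and 7.96 in wild-type pools. Its median gene SD was 0.54 in tumor pools and 0.91 in wild-type pools. Acta1, skeletal actin, measured 9.11, 7.20, 7.28 and 7.62 in the tumor pools and 7.72, 10.83, 7.40 and 9.17 in the wild-type pools. Tnnt3 and Tnnc2 (troponin subunits), Atp2a1 (a calcium pump) and Ckm (muscle creatine kinase) had the same split. The 10 highest wild-type SDs among members belonged to Nppa, both Actc1 clusters, Acta1, Atp2a1, Tnnt3, Ckm, Mb, Tnnc2 and the alcohol dehydrogenase gene Adh1.

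Keratin genes of epithelium were below wild type in all tumor pools, and Krt8, Krt18, Krt17 and Krt14 were highest among tumors in pool 4. Krt8, a keratin of simple epithelium, measured 7.78, 7.87, 8.54 and 9.36 in tumor pools 1 to 4 and 11.73, 11.77, 11.64 and 11.77 in wild-type pools. Its partner and genomic neighbour Krt18 measured 6.39, 6.75, 7.29 and 8.16 in the tumor pools and 10.81, 10.70, 10.80 and 10.88 in the wild-type pools. All tumor pools lay below all wild-type pools for both. Krt17 had the same split, and Krt14, of basal and medullary epithelium, had pool 1 alone below with pool 4 highest. The list means were 7.31, 7.68, 7.69 and 7.58 for cortical epithelium in the tumor pools, against 10.19, 10.16, 10.07 and 10.25 in the wild-type pools. For medullary epithelium they were 6.73, 6.97, 7.17 and 7.26 in the tumor pools, against 8.10, 8.01, 8.05 and 8.04 in the wild-type pools. The cortical list as a whole was not highest in pool 4: of its 14 measured genes 2 were highest in pool 4 and 6 in pool 2.

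**Figure D3:**
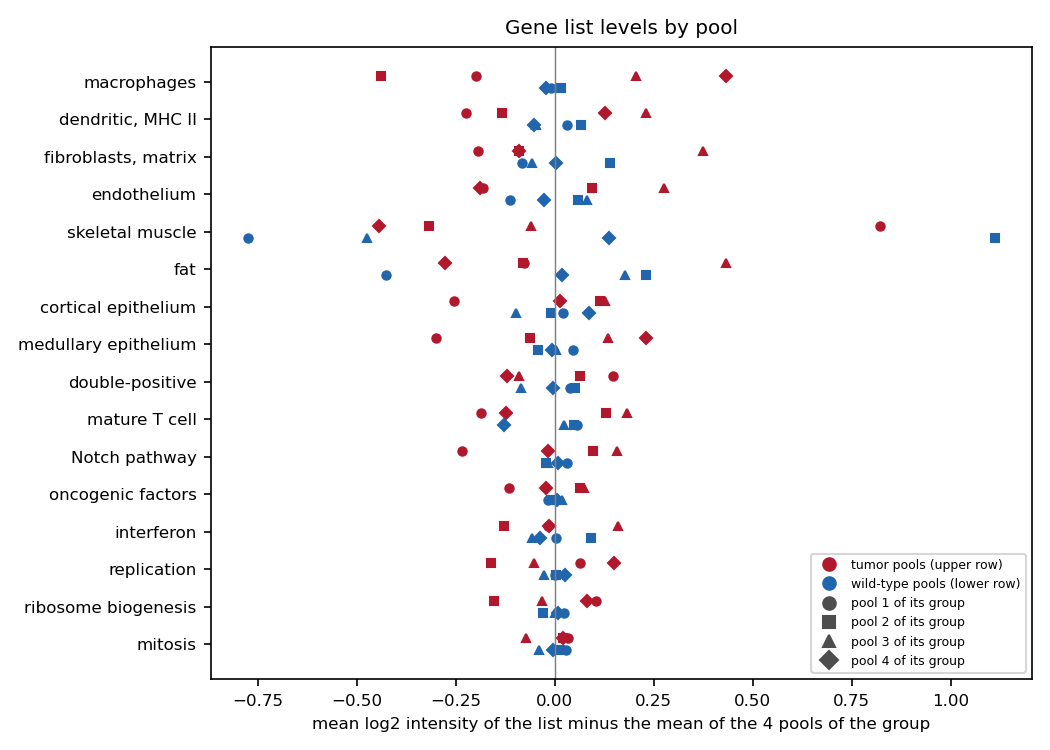
For 16 gene lists (rows), the mean log2 intensity of the list in each pool minus the mean of its group is shown on the x axis for tumor pools (red, upper) and wild-type pools (blue, lower), with a symbol for each pool number. Tumor pools 3 and 4 lie highest for macrophages, tumor pool 3 for fibroblasts and fat, and tumor pool 1 for skeletal muscle. Wild-type pools spread more than tumor pools for skeletal muscle.

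Genes of T-cell stage set pool 1 and pool 4 apart in different ways. Cd4, the co-receptor for class II molecules, measured 11.01, 10.04, 9.64 and 10.02 in tumor pools 1 to 4 and 11.86, 11.81, 11.67 and 11.69 in wild-type pools. Cd8a, a chain of the co-receptor for class I molecules, measured 11.28, 12.11, 11.85 and 10.70 in the tumor pools and 12.95, 12.95, 12.88 and 13.02 in the wild-type pools. Both were below wild type in every tumor pool. Cd4 was highest in pool 1 and Cd8a lowest in pool 4. The partner chain Cd8b1, not a member, measured 11.49, 11.79, 11.19 and 10.96 in the tumor pools, with pool 4 lowest as for Cd8a.

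Ccr9, a chemokine receptor of immature thymocytes, measured 10.06, 9.18, 10.08 and 9.003 in the tumor pools and 12.50, 12.48, 12.50 and 12.42 in the wild-type pools. Slc7a11, a cystine transporter subunit, measured 10.11, 7.46, 7.92 and 8.54 in the tumor pools and 10.50, 10.54, 10.31 and 10.43 in the wild-type pools, so pool 1 came nearest to wild type. These 4 (Cd4, Cd8a, Ccr9 and Slc7a11) were the members among 23 clusters of the double-positive list (17.4%). The mean of that list was 10.35, 10.26, 10.11 and 10.08 in the tumor pools and 11.25, 11.27, 11.13 and 11.21 in the wild-type pools. Its order among the tumor pools depended on scale: with equal interquartile ranges the values were 10.19, 10.43, 10.21 and 9.98, with pool 2 highest.

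The receptor genes Ccr7, S1pr1 and Gpr183 were low in pool 1. Ccr7, a chemokine receptor, measured 7.47, 9.20, 9.64 and 9.51 in the tumor pools and 10.82, 10.72, 10.62 and 10.51 in the wild-type pools. S1pr1, the receptor for egress, measured 7.28, 9.04, 9.70 and 8.65 in the tumor pools and 9.31, 9.41, 9.45 and 9.26 in the wild-type pools. Gpr183, a receptor that guides immune cells, measured 8.20, 10.02, 10.18 and 9.60 in the tumor pools and 9.76, 9.86, 9.65 and 9.45 in the wild-type pools. Pool 1 was below every wild-type pool for all 3 genes, while pool 3 exceeded wild type for S1pr1 and Gpr183. S1pr3 and Gpr18, also receptor genes, had pools 2 and 3 above. The mature T cell list, which holds Ccr7 and S1pr1, was mixed: of its 30 measured genes 16 were lowest and 9 highest in pool 1, and its member Ms4a6b had pool 1 alone above. Its mean was 8.17, 8.49, 8.54 and 8.23 in the tumor pools, against 9.04, 9.04, 9.01 and 8.86 in the wild-type pools.

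Il2rb, a chain of the interleukin receptors for IL-2 and IL-15, was measured by 2 clusters that both had pool 1 alone below: 7.97, 9.11, 9.49 and 8.98 for one and 7.96, 8.96, 9.47 and 8.97 for the other. Nkg7, of cytotoxic granules, measured 5.84, 6.79, 8.06 and 7.37 in the tumor pools and 9.25, 9.19, 9.03 and 9.15 in the wild-type pools. The inhibitory receptor gene Lag3, the matrix protease gene Mmp9 and the receptor delta variable segment Trdv2-2 had pool 1 below as well. Trdv2-2 measured 7.45, 9.03, 9.005 and 8.29 in the tumor pools and 9.10, 9.11, 9.10 and 9.12 in the wild-type pools. The wild-type pools were nearly equal, and pool 1 was the lowest tumor pool. The immunoglobulin-family genes Cd96 and Cd200 had pool 4 alone below.

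Ptcra, the pre-T-cell receptor alpha chain of early thymocytes, measured 9.17, 10.38, 10.18 and 9.58 in the tumor pools and 9.18, 9.06, 9.09 and 9.36 in the wild-type pools. Pools 2 and 3 were highest, and pool 1 was within the wild-type range. The stage genes Il2ra and Rag2 were not members. Il2ra, the alpha chain of the interleukin 2 receptor on early thymocytes, had 12.25, 12.68, 12.51 and 12.17 in the tumor pools, and Rag2, of the recombinase, had 6.92, 7.62, 7.47 and 7.77. Their tumor SDs of 0.24 and 0.37 were above the median of 0.15 for the 9591 clusters.

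Among 40 clusters of listed oncogenic factors at the floor, 4 were members, where members make up 3.13% of all 9591 clusters. They were Ccnd1, Ccnd2, Emx2 and Pou2af1. Ccnd1, cyclin D1, measured 8.35, 10.47, 9.21 and 9.87 in tumor pools 1 to 4 and 8.95, 8.94, 8.66 and 8.93 in wild-type pools. Pool 1 was below all wild-type pools and the other tumor pools above them. Ccnd2, cyclin D2, measured 8.13, 9.47, 9.56 and 9.20 in the tumor pools and 10.92, 10.88, 10.76 and 10.84 in the wild-type pools, with all tumor pools lower. Emx2, a homeobox factor of brain and urogenital development, measured 7.62, 8.97, 9.02 and 9.03 in the tumor pools and 5.67, 5.07, 5.86 and 5.96 in the wild-type pools. All tumor pools were above wild type, and the adjacent transcript E330013P04Rik shared the split, with 6.06, 8.99, 9.64 and 8.86 in the tumor pools and 5.001 to 5.24 in the wild-type pools. Pou2af1, a B-cell coactivator, measured 9.56, 8.43, 8.56 and 8.41 in the tumor pools and 7.91, 7.99, 7.97 and 7.86 in the wild-type pools, with pool 1 alone above.

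Of the Notch pathway, the target Nrarp varied more between tumors than the receptor gene Notch1. Nrarp, which dampens the pathway, measured 8.77, 9.88, 10.90 and 9.94 in the tumor pools and 6.99, 6.94, 6.72 and 6.87 in the wild-type pools. All tumor pools were higher, with pool 1 lowest and pool 3 highest. Notch1, the receptor that drives T-cell commitment, was no member, with 10.997, 11.62, 11.26 and 11.42 in the tumor pools and 10.19, 10.07, 10.19 and 10.14 in the wild-type pools. Notch3 ranked 377, outside the 300, with 9.02, 9.97, 9.85 and 10.04 in the tumor pools and 8.48, 8.40, 8.51 and 8.50 in the wild-type pools. Pool 1 was the lowest tumor pool for Nrarp, Notch1 and Notch3. The Notch list, with Nrarp and Ptcra as members among 18 clusters (11.1%), had means of 9.22, 9.56, 9.62 and 9.44 in the tumor pools and 8.73, 8.68, 8.68 and 8.71 in the wild-type pools.

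Myc, a growth regulator and Notch target in T-cell leukemia, had a tumor SD of 0.15, with 11.51, 11.51, 11.61 and 11.83 in the tumor pools and 10.31, 10.35, 10.30 and 10.41 in the wild-type pools. Mcm4 itself measured 11.03, 10.85, 11.09 and 11.13 in the tumor pools and 10.78, 10.71, 10.64 and 10.76 in the wild-type pools, with a tumor SD of 0.13. Mcm2, its partner in the helicase, had a tumor SD of 0.15. Ikzf1, the lymphoid factor Ikaros, had a tumor SD of 0.12, with 9.77 to 10.06 in the tumor pools and 11.08 to 11.29 in the wild-type pools. The leukemia factors Tal1, Lmo2 and Lyl1 had tumor SDs of 0.09, 0.13 and 0.20, and Bcl11b, a T-lineage factor, had 0.18. Tlx1, Tlx3, Hoxa9, Lmo1, Mycn, Erg, Mef2c and Kit had tumor means below the floor of 7, from 5.74 for Hoxa9 to 6.99 for Tlx1.

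None of 37 clusters of the replication list, 25 of mitosis, 23 of ribosome biogenesis or 30 of tumour suppressors was among the 300. Members make up 3.13% of the 9591, so lists of this size would hold few members at that share. The median tumor SD of their genes was 0.16, 0.10, 0.16 and 0.18, beside 0.15 for all 9591 clusters. Replication genes were highest in tumor pool 4 for 23 of 36 measured genes and lowest in pool 2 for 24, within a narrow range of list means of 10.11, 9.88, 9.99 and 10.19 in the tumor pools and 9.72, 9.72, 9.69 and 9.74 in the wild-type pools. After arrays were scaled, these tumor means were 9.97, 10.02, 10.08 and 10.08, with pool 1 lowest. In all, 28 of 41 lists had a member and 69 of the 300 clusters were in a list.

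**Figure D4:**
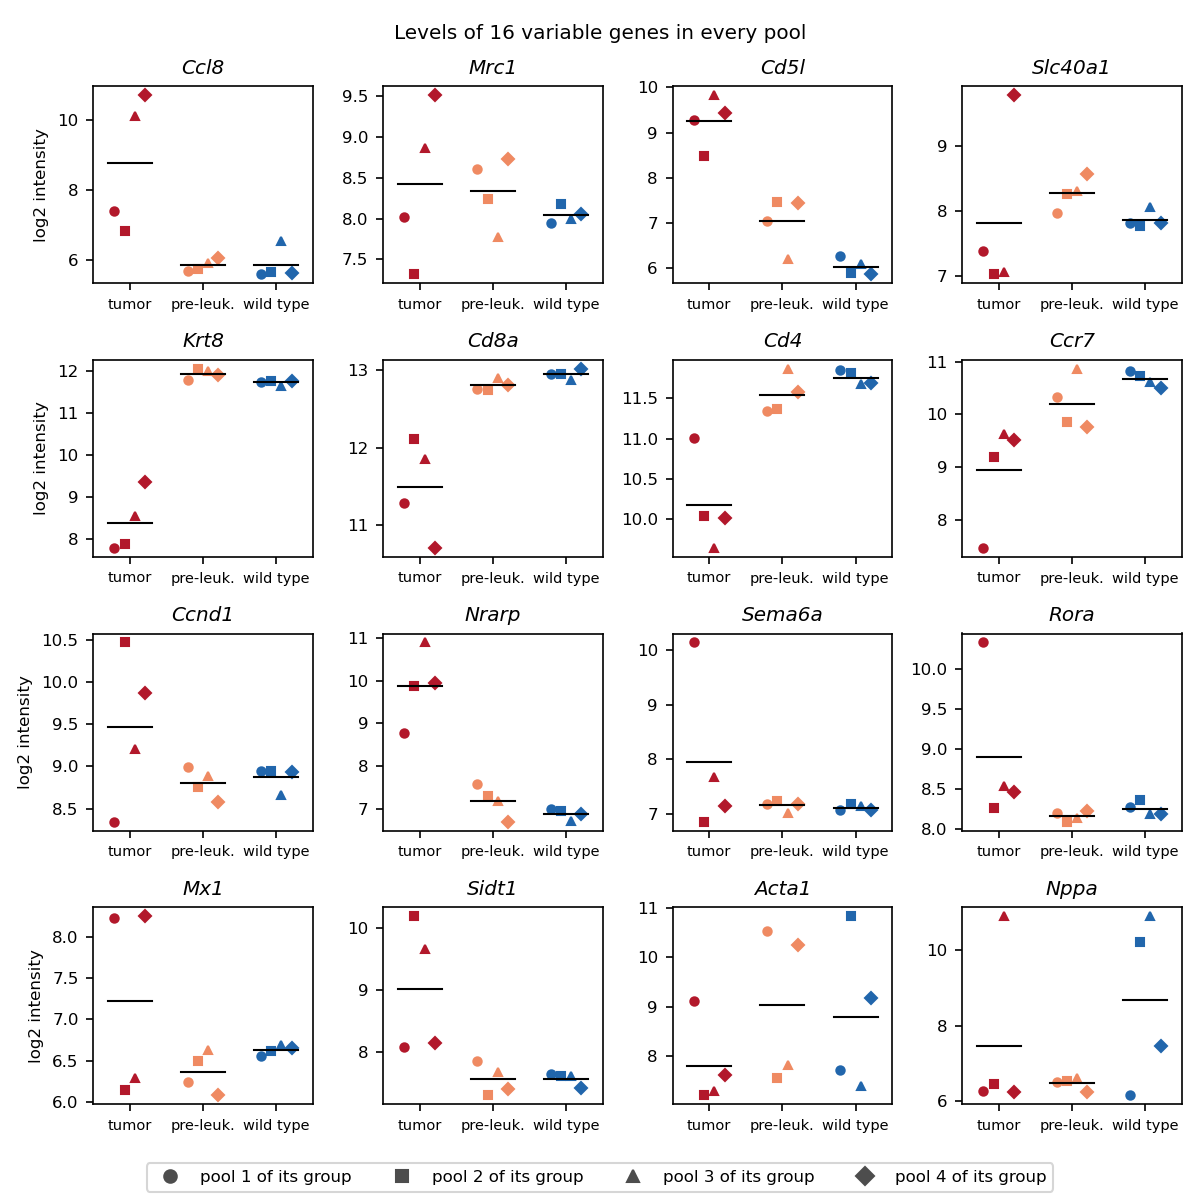
Log2 intensity (y, a separate scale per panel) of 16 member genes in every pool, with tumor left, pre-leukemic in the middle and wild type right. Symbols mark the pool number within its group and lines the group mean. Ccl8 and Mrc1 are highest in tumor pools 3 and 4, Slc40a1 and Krt8 in tumor pool 4, Sema6a and Rora in tumor pool 1, and Ccr7 is lowest among tumors in pool 1. Acta1 and Nppa differ as widely between wild-type pools.

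Several large differences of pool 1 from the other tumors were in genes outside the lists. Sema6a, an axon guidance semaphorin, measured 10.14, 6.86, 7.67 and 7.14 in tumor pools 1 to 4 and 7.07, 7.18, 7.15 and 7.07 in wild-type pools. Gal, the neuropeptide galanin, measured 9.57, 7.64, 6.51 and 6.73 in the tumor pools and 5.59, 5.70, 5.73 and 5.87 in the wild-type pools. Rora, a nuclear receptor of innate lymphoid and T-cell subsets, measured 10.33, 8.26, 8.54 and 8.46 in the tumor pools and 8.28, 8.36, 8.19 and 8.19 in the wild-type pools. Pool 1 was above every wild-type pool and every other tumor pool for all 3.

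Pool 1 was also alone above for Nrn1, a neuronal growth protein (8.92 in pool 1, 6.16 to 6.998 in pools 2 to 4, 5.85 to 7.10 in the wild-type pools), and Fah, of tyrosine breakdown (9.998, against 7.45 to 8.12 in the other tumor pools). The mast-cell protease gene Cpa3 measured 8.73, 6.01, 6.87 and 6.71 in the tumor pools and 7.42, 7.83, 7.14 and 7.39 in the wild-type pools. Mtus2, of microtubules, and Mzb1, a chaperone of plasma cells, had the same split. The lists that hold Cpa3 and Mzb1 did not follow them. Of 9 measured mast cell and basophil genes, 1 was highest in pool 1 and 4 were lowest there. Of 17 measured B-cell and plasma-cell genes, 1 was highest in pool 1 and 7 were lowest there. Gria3, a glutamate receptor subunit, had pool 1 alone below, with 6.33, 8.68, 8.85 and 8.17 in the tumor pools and 7.27, 7.22, 7.08 and 7.14 in the wild-type pools. Tspan2 (a tetraspanin), Gdpd3 (a lipid phosphodiesterase), Clu (the chaperone clusterin), the chemokine Cxcl13, Gadd45g and the olfactory receptor Olfr633 also had pool 1 alone below.

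Among the 300 clusters, pool 2 was most often the lowest pool. It held the lowest value in 143 of 300 clusters and the highest in 25. The same counts were not taken over all clusters at the floor. Pool 2 stood alone below in 41 clusters (13.7%, against 11.2% of the clusters at the floor). That count was 33 after arrays were scaled to equal interquartile range. Its array had the narrowest interquartile range of the tumor arrays, 2.75, and the part of that range in these counts was not tested. Bex1, a small signalling adaptor, measured 9.99, 6.92, 8.37 and 8.59 in the tumor pools and 7.91, 8.03, 7.82 and 7.98 in the wild-type pools. Trim13, a ubiquitin ligase, measured 8.51, 6.11, 7.99 and 7.37 in the tumor pools and 8.53, 8.79, 8.35 and 8.53 in the wild-type pools. Pool 2 was below every wild-type pool for both. The mitochondrial adenylate kinase gene Ak4, the mRNA-binding Igf2bp3, the leukotriene receptor Cysltr1 and the phosphodiesterase-like Smpdl3a also had pool 2 alone below. The single cluster with pool 2 alone above was Olfr429, at 7.77 against 6.73 to 6.77 in the other tumor pools.

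Pool 4 stood alone above in 42 clusters, with gaps of up to 2.40 log2 units. Rnase2a, an eosinophil-type ribonuclease, measured 6.96, 5.85, 8.34 and 10.56 in the tumor pools and 7.09, 7.14, 6.78 and 7.40 in the wild-type pools. H19, an imprinted noncoding RNA, measured 7.39, 6.90, 7.92 and 10.005 in the tumor pools and 9.83, 9.93, 9.76 and 9.98 in the wild-type pools. Pool 4 held H19 at the wild-type level while pools 1 to 3 were below every wild-type pool. Lgals7, a galectin of stratified epithelium, measured 7.64, 8.34, 8.49 and 10.59 in the tumor pools and 8.20, 8.29, 8.39 and 8.04 in the wild-type pools.

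Lmcd1, a transcription cofactor, measured 8.03, 7.95, 8.54 and 10.39 in the tumor pools and 6.22, 6.49, 6.42 and 6.36 in the wild-type pools. Etv5, an ETS factor, measured 8.15, 7.48, 7.95 and 9.98 in the tumor pools and 7.67, 7.64, 7.43 and 7.58 in the wild-type pools. Lmcd1 was above wild type in every tumor pool, while Etv5 had pool 2 within the wild-type range. Ndrg1 (a hypoxia-responsive gene), Lcn2 (an iron-scavenging granule protein), Wfdc18 and Yae1d1 were also alone above in pool 4. Car3, a carbonic anhydrase of fat and muscle, was lowest in pool 4, with 8.55, 8.27, 9.78 and 6.59 in the tumor pools and 12.09, 12.71, 12.42 and 12.43 in the wild-type pools.

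Mmp12, the macrophage elastase, measured 8.57, 6.95, 6.99 and 8.84 in the tumor pools and 6.35, 6.07, 6.33 and 6.01 in the wild-type pools, with pools 1 and 4 above. Grik1 (a glutamate receptor), Cers4 (a ceramide synthase), Samsn1 (a signalling adaptor), Rpl36 (a ribosomal protein) and Tceal8 shared that split. Sidt1, a membrane protein of nucleic acid uptake, measured 8.08, 10.20, 9.66 and 8.13 in the tumor pools and 7.64, 7.60, 7.61 and 7.41 in the wild-type pools, with pools 2 and 3 above. Rnd2, Tceal3, Npy, Ifitm5 and the vomeronasal receptor Vmn1r183 shared that one. Pool 3 alone was above for Chil1 (a chitinase-like protein) and Ly6k, and alone below for As3mt (an arsenic methyltransferase) and Zmynd8 (a chromatin reader). Pools 1 and 3 were above for Sqor, Ube2e2, Chst1, Zfp532, Cbr2 and Ccdc169, pools 1 and 2 for Acan, Wdr78 and Tmod4, and pools 2 and 4 for Sertad4 and Wdr25.

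Setting tumor against wild type, a contrast that the study names, shows how far this spread sits on top of a common difference. By limma at an adjusted p under 0.05, 70 of the 300 clusters (23.3%) were higher in tumors, beside 16.2% of all 17829 and 24.4% of the 9591, and 56 (18.7%) were lower, beside 14.5% and 15.6%. At an unadjusted p under 0.05, 161 of the 300 (53.7%) differed, beside 40.7% of all clusters and 51.2% of the 9591. The tumor values in this test also chose the clusters, through their mean and their spread. Its standard errors had a median of 0.28 for the 300 clusters and 0.10 for all clusters. The median log2 difference was 0.07 for the 300 clusters and 0.07 for all. Tumor pools lay on both sides of the wild-type range in 121 clusters (40.3%, against 19.7% of the 9591), entirely above it in 64 (21.3%, against 27.4%) and entirely below it in 50 (16.7%, against 17.4%). The clusters were chosen for a wide tumor spread, so the larger share on both sides comes with the choice.

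Some clusters thus differed between tumors and yet were all far from wild type. Ccdc169, a coiled-coil protein gene, rose by 3.63 ± 0.22 log2 units (SE, n = 4 pools each, limma adjusted p = 1.01e-05), with 9.02, 8.40, 9.18 and 8.09 in the tumor pools and 4.98 to 5.15 in the wild-type pools. Arg1 rose by 3.04 ± 0.33 (limma adjusted p = 0.000197), Emx2 rose by 3.02 ± 0.33 (0.000214) and Nrarp rose by 2.99 ± 0.36 (0.000368). Ccdc169, Arg1, Emx2 and Nrarp were under 7 in every wild-type pool, and the floor of 7 was set on the tumor mean. They could be chosen only with a tumor mean above wild type, so their rises and adjusted p come partly with the choice. The same holds for Ccl8 and Gal, given below. Among those lower in tumors, Car3 fell by 4.12 ± 0.55 (limma adjusted p = 0.000617), Krt18 fell by 3.65 ± 0.32 (6.93e-05), Krt8 fell by 3.34 ± 0.30 (7.84e-05), Igfbp5 fell by 3.28 ± 0.34 (0.000153) and Wdr78 fell by 3.05 ± 0.23 (3.58e-05). Ccr9 fell by 2.89 ± 0.24 (limma adjusted p = 5.35e-05) and Cd4 fell by 1.58 ± 0.25 (0.00147). Sema6a, Bex1, Gria3, Rnase2a, Etv5, Ccnd1 and Mx1 did not pass this test, with limma adjusted p between 0.217 and 0.488. Some calls did not hold with fewer arrays: Ccl8 (difference 2.90 ± 0.81, limma adjusted p = 0.0242), Gal (1.89 ± 0.57, 0.0338), H19 (-1.82 ± 0.56, 0.036) and Pou2af1 (0.81 ± 0.23, 0.0271) each lost the call when any of several arrays was left out. At the highest adjusted p after leaving out 1 array, Ccl8 had a difference of 2.45 (limma adjusted p = 0.0623, without tumor pool 3) and Gal of 1.85 (0.0778, without wild-type pool 1). H19 had -1.44 (limma adjusted p = 0.0801, without tumor pool 2) and Pou2af1 had 0.80 (0.0639, without wild-type pool 1).

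Pre-leukemic thymus gave no call among the 300 clusters against wild type, as among all 17829 (0%). The smallest limma adjusted p was 0.764 among the 300. At an unadjusted p under 0.05, 46 of the 300 (15.3%) differed, 26 higher and 20 lower, beside 6.24% of all clusters and 7.58% of the 9591. None of these 8 arrays was used in choosing the clusters.

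Medians over the clusters of a chromosome differed slightly between tumor pools, and whether a difference spans the chromosome was not tested. For each chromosome, the median deviation of its clusters from the group mean was taken in each pool. On chromosome 15 it was -0.04, -0.04, 0.08 and -0.01 log2 units in tumor pools 1 to 4, on chromosome 12 it was 0.01, 0.02, -0.07 and 0.02, and on chromosome 8 it was 0.07, -0.03, -0.03 and -0.02. Chromosomes X (0.04, -0.03, -0.04 and 0.02), 18 (0.03, -0.03, -0.04 and 0.03) and 7 (-0.03, 0.02, 0.03 and -0.02) set pools 1 and 4 against pools 2 and 3. The interquartile ranges of the arrays have the same split, and their part was not tested. In wild-type pools every chromosome lay between -0.01 and 0.02. The share of members among eligible clusters ran from 1.18% on chromosome 8 to 5.26% on chromosome 3. Of 24 pairs of members that were next to each other among the measured clusters, 8 had the same split. They were C1qb with C1qc, Krt8 with Krt18, Ifitm2 with Ifitm3, Mx1 with Mx2, Emx2 with E330013P04Rik, Sema6a with Dmxl1, Sdc2 with Cpq, and Tesc with Fbxw8.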

How the data were processed

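RNA from 12 pools was read on Affymetrix Mouse Exon 1.0 ST arrays after Trizol extraction and amplification with the Ambion WT expression kit, per the labels' protocols. The authors deposited 1 linear intensity per transcript cluster and array; which software and normalization produced these intensities is not given in the sources used here. Array medians were close, at 7.54 to 7.71 after log2 transformation, as after a normalization between arrays. Log2 values had been foreseen in planning, and each deposited intensity was therefore log2-transformed with no pseudocount. Arrays have no read depth, and their number limits the precision. Other matrices hold 24 columns whose pool names match no label and were not used.

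Symbols came from the platform annotation, which gives 15618 clusters 1 symbol, 1370 several and 841 none. Only clusters with 1 symbol and a mean log2 intensity of 7 or more over the tumor pools were ranked by SD over those pools, and the 300 highest were kept. Each comparison was fitted on its 8 arrays by lmFit and eBayes of limma 3.58.1 (R 4.3.3), two-sided, with Benjamini-Hochberg adjustment over all 17829 clusters and a threshold of 0.05. Every adjusted p in the text is from limma. A list's level in a pool is the mean log2 intensity of its measured genes, where a symbol with several clusters counts once, by its brightest cluster over the 12 arrays.

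The members, lists and rule for named genes were chosen with earlier results of these data known. The rule names the 20 members with the highest tumor SD, up to 8 with the largest gap for each split, up to 4 members of each list, the 10 with the highest wild-type SD, the 3 clusters on either side of the limit and a fixed set of T-cell leukemia genes, leaving out predicted symbols from its first parts. The remaining members of the macrophage and matrix lists, the neighbouring pairs, Ifitm2, Ifitm3 and Scn4b were named after their values were seen. Some genes of the fixed set were not analysed here.

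Deviations of same-numbered tumor and wild-type pools from their group means correlated at 0.05, -0.40, 0.15 and -0.09 across clusters. For pre-leukemic and wild-type pools these values were -0.22, -0.55, -0.04 and -0.05. Pools of different number were not compared, and the labels do not say whether a number marks a shared batch. Whether pool numbers pair the groups is therefore not known. On simulated data with 200 changed of 17829 clusters, limma recovered 40% of clusters changed by 0.5 log2 units, 90% changed by 1 and 100% changed by 2 for tumor against wild type, with 4 false calls among 17629. The simulated noise was normal, independent between clusters and of equal SD in both groups, unlike the measured groups. Recovery among the 300 described clusters, whose standard errors were larger, was not measured. Planted spread was recovered for 300 of 300 clusters. Other floors, spread measures, normalizations, fits and left-out arrays were tried as alternatives.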

Additional observations from a re-analysis of the deposited data

Results flagged for a closer look

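A pool was marked where its gap to the nearest other pool of its group, divided by the range of the group, passed Dixon's 95% critical value for 4 arrays. Chance marks about 1 in 20 groups. The tumor values of 150 named genes and 82 list levels (tumor and wild type) were examined, and the genes had been chosen for their spread, so many marks come with the choice. Pool 1 stood apart above for Tnnt3 (0.907), Rora (0.867), Pou2af1 (0.864) and Atp2a1 (0.833), and below for Emx2 (0.962) and Tspan2 (0.878). Pool 2 stood apart above for Olfr429 (0.962) and below for Smpdl3a (0.932). Pool 3 stood apart above for Nppa (0.956), both clusters of Actc1 (0.863 and 0.880), Cxcl9 (0.887), Efemp1 (0.864), Emcn (0.851) and Dpt (0.835). Pool 4 stood apart above for Slc40a1 (0.871) and Yae1d1 (0.836).

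Among list levels, the mitosis list was lower in tumor pool 3 than in the other tumor pools, with a ratio of 0.875 and a mean of 10.17 against 10.26 to 10.27. With arrays scaled to equal interquartile range the means were 10.12, 10.43, 10.27 and 10.15 in tumor pools 1 to 4, and pool 3 was no longer lowest. The histone list was lower in wild-type pool 2 than in the other wild-type pools, with a ratio of 0.860 and a mean of 8.87 against 8.91.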

How the results depend on the processing

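The number of the 300 clusters chosen again fell to 167 with a floor of 8 on the tumor mean, of which 300 were again taken. With that floor pool 2 stood alone in 64 clusters. The other alternatives of floor, spread measure, normalization and scaling left the count for each pool alone, and for 2 pools against 2, within 1.5 times. The split with pools 2 and 3 above had 26 clusters after scaling to equal interquartile range, against 16. Scaling the list levels to equal interquartile range was chosen after the ranges of the arrays were seen; of 164 levels (41 lists in 4 tumor pools), 129 moved by less than the SD over the tumor pools and 35 by more. Leaving out 1 tumor pool and ranking again, 197 to 235 of the clusters were chosen again, with the lowest number without pool 1. The count in the highest 10% of wild-type SDs was 89 to 123 when 1 array was left out. Calls higher in tumors numbered 48 to 71 and calls lower 43 to 64 with 1 array left out. A test against a difference of 1.5-fold left 23 higher and 23 lower. With the replicate number as a block, 71 were higher, 62 lower and 0 differed in pre-leukemic thymus. Whether the numbers pair the pools is not known. Every alternative run gave 0 pre-leukemic calls. Of 150 genes followed under 16 settings, 75 were called, 31 kept the call under every setting, 44 lost it under at least 1 and 0 reversed. Clusters near the floor have low signal, and no detection calls were used here.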
